A study of Drosophila melanogaster with 14 samples.

Results

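In cultured ovarian somatic cells (OSCs) of Drosophila melanogaster, 61 of 16727 counted genes were near silent in the control and above 1 CPM (count per 1000000 reads on genes) after each of 3 knockdowns. OSCs are a line of follicle-cell origin. RNAi ran for 48 hours, against l(3)mbt (L(3)mbt KD), against Lint-1 (Lint-1 KD) or against Lint-O (Lint-O KD, the gene listed as CG2662). The control was RNAi against EGFP, a sequence of jellyfish origin (EGFP KD). Polyadenylated RNA of 2 libraries per group was sequenced, 8 in all. The labels give no genotype beyond the cell type, and all groups shared the line, its medium and the RNAi treatment. Whether replicate libraries stem from separate cultures is not stated, so a p-value speaks only of the variation among these libraries, and that variation may be technical.

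The 61 genes were chosen by their measured level in these same libraries. A gene had to lie under 0.5 CPM in both EGFP KD libraries and at 1 CPM or more in all 6 knockdown libraries. Those thresholds were met by 70 genes, and 9 of them were set aside by name (cona, ocn, BigH1, Syt7, CG9935, CR43425, CR44440, Drsl5 and CG12970). The difference from EGFP KD is therefore a product of the choice and is described without a test. Tests are given only between knockdowns, which the choice used no further than the 1 CPM minimum, and for genes outside the set. CPM is not divided by gene length, so levels are compared between libraries and not between genes.

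L(3)mbt carries malignant brain tumour repeats, a domain that binds methylated lysines of histones, and is known as a chromatin repressor. In flies that lack it, larval brain tumours and ovaries express genes that belong to other tissues, germline genes above all. Lint-1 is a partner of L(3)mbt in the LINT repressor complex, and Lint-O is a further interactor of it in these ovarian cells. The knockdowns reduce 1 partner at a time, to unequal degrees, so each gene described here can be read in the same cell line with any of the 3 partners reduced.

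The targeted RNAs fell in their own knockdowns. l(3)mbt was 180.5 and 183 CPM in EGFP KD, 108 and 94.4 in L(3)mbt KD, 202 and 201 in Lint-1 KD, and 209 and 219.5 in Lint-O KD. Lint-1 was at 55.5 and 50.4 CPM in the EGFP KD libraries, against 76.2 and 84.6 with L(3)mbt reduced, 10.1 and 12.4 with Lint-1 reduced and 73.5 and 79.3 with Lint-O reduced. CG2662 was 19.2 and 17.8 CPM in EGFP KD, 21.5 and 22.5 in L(3)mbt KD, 23.6 and 20.9 in Lint-1 KD, and 1.09 and 2.02 in Lint-O KD. By edgeR's quasi-likelihood test with Benjamini-Hochberg adjustment, the change in its own knockdown was -0.91 on the log2 scale for l(3)mbt (SE 0.102, adjusted p = 0.000439), -2.31 for Lint-1 (SE 0.164, adjusted p = 3.83e-05) and -3.59 for CG2662 (SE 0.263, adjusted p = 7.76e-05). The fall of l(3)mbt RNA was the smallest of the 3. Where levels are compared between knockdowns below, the partner reduced and the depth of its reduction cannot be told apart.

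The libraries held 18293791 to 20978039 reads assigned to genes, so that 1 read was worth 0.0477 to 0.0547 CPM. For a gene with no read in a library the upper limit is 3 counts, or 0.143 to 0.164 CPM, and covers counting error only. The 61 genes together took 12.4 and 10.7 CPM of the EGFP KD libraries, 401 and 427 of L(3)mbt KD, 364 and 377 of Lint-1 KD, and 195 and 232 of Lint-O KD. In bulk RNA, more cells with a transcript and more transcript per cell cannot be told apart. The 5 follicle-derived markers (tj, zfh1, fs(1)Yb, piwi and Fas3) summed to 1046 to 1530 CPM over the 8 libraries, and 0 of the 5 passed the test in any knockdown against EGFP KD. Germ cell markers (vas, nos, bam, osk, orb and zpg) summed to 9.29 and 12.2 CPM in EGFP KD, 149 and 143 in L(3)mbt KD, 35.6 and 36.1 in Lint-1 KD, and 63.4 and 91.5 in Lint-O KD, and 2 of the 4 tested (vas and nos) were higher in each knockdown. In L(3)mbt KD and Lint-O KD most of the sum came from vas. Without vas they came to 7.80 and 10.97 CPM in EGFP KD, 20.4 and 19.8 in L(3)mbt KD, 23.1 and 23.3 in Lint-1 KD, and 11.9 and 18.5 in Lint-O KD. In every library most of what remained was bam, at 7.59 and 10.6 CPM in EGFP KD and 11.1 to 17.4 in the knockdowns. bam was not called in L(3)mbt KD, Lint-1 KD or Lint-O KD (edgeR adjusted p = 0.156, 0.0854 and 0.272). osk had 0.107 CPM at most in any library. orb, not called in any knockdown, was 0.214 and 0.205 CPM in EGFP KD and 1.15 and 1.11 in L(3)mbt KD. In Lint-1 KD orb was 0.858 and 1.02 CPM, and in Lint-O KD 0 and 0.107. zpg, too low to be tested, was at 0 in all EGFP KD and Lint-O KD libraries. It was 0.547 and 0.355 CPM in L(3)mbt KD and 0.477 and 0.107 in Lint-1 KD. Muscle markers summed to 5.61 and 9.07 CPM in EGFP KD and to 8.10 to 28.1 in the knockdowns, with 1 of 2 tested higher in L(3)mbt KD and in Lint-1 KD. That was Mlc2, at 3.69 and 4.92 CPM in EGFP KD and 6.21 to 25.1 in the knockdowns. Mhc was not called, and Mlc1, up, wupA and Act88F were too low to be tested. Fat body markers summed to 1.60 and 0.307 CPM in EGFP KD and to 2.19 to 8.97 in the knockdowns, with the only one tested, Yp3, higher in L(3)mbt KD. Neuronal markers summed to 18.9 and 25.3 CPM in EGFP KD and to 19.3 to 36.8 in the knockdowns, with 1 of 2 tested (Appl) higher in Lint-1 KD. Most of that sum was elav, not called. Hemocyte markers lay at 18.1 to 34.5 CPM in every library, mostly from Pxn, with 0 of 2 tested called. Spermatocyte markers summed to 0.397 CPM at most, and can, sa, Mst87F and dj were at 0 in all 8 libraries. The part of these cell types in the levels described here was not tested.

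Of the 61 genes, 58 are protein-coding, 2 are antisense RNAs and 1 is a long non-coding RNA. In EGFP KD, 3 of them had no read in either library, 9 had 1 to 3 reads in both together and 49 had 4 or more, with 16 as the highest. Averaged over the 3 knockdowns, the levels ran from 1.49 to 32.9 CPM with a median of 3.37 CPM. Of them 25 lay under 3 CPM, 24 from 3 to 6 CPM and 12 above that, and 9 genes had at least 5 CPM in each of the 6 knockdown libraries. The ratio of the knockdown mean to the control had a median of 27.9 in L(3)mbt KD (range 5.34 to 651), 20.4 in Lint-1 KD (4.34 to 1100) and 14.99 in Lint-O KD (4.49 to 134). Members at 0 in both control libraries entered these medians at the smallest fold their floor allows. The highest knockdown mean was that of L(3)mbt KD for 35 genes, of Lint-1 KD for 18 and of Lint-O KD for 8. The lowest was that of Lint-O KD for 36, of Lint-1 KD for 22 and of L(3)mbt KD for 3.

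**Figure D1:**
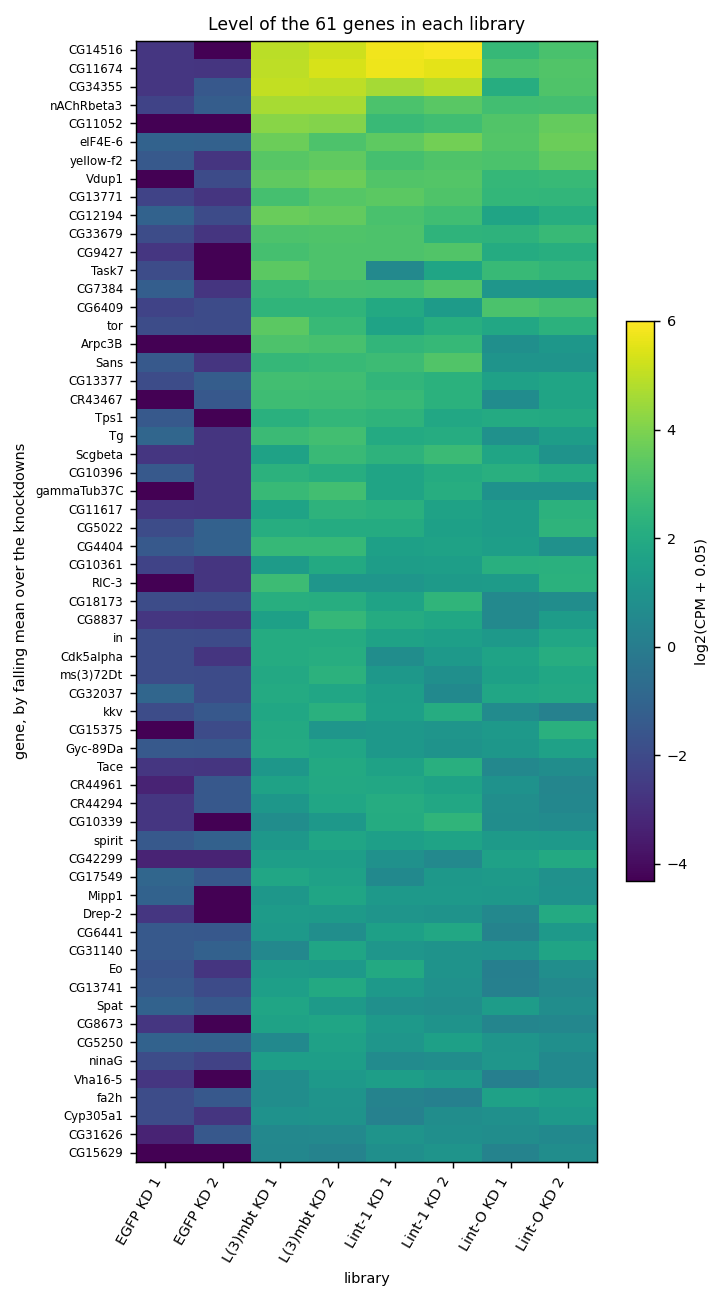
Level of the 61 genes (rows, ordered by their mean over the 3 knockdowns) in the 8 libraries (columns), as log2(CPM + 0.05) on the colour scale. Both EGFP KD columns lie under 0.5 CPM throughout, as the choice of genes sets, and the Lint-O KD columns hold the lowest knockdown mean for 36 genes.

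The 3 genes with the highest CPM averaged over the knockdowns had no role that is given here. CG14516 (now superdeath, chromosome 3R, 29138662 to 29145787 in dm6) was 0.107 and 0 CPM in EGFP KD, 30.6 and 37.3 in L(3)mbt KD, 55.5 and 59.8 in Lint-1 KD, and 5.91 and 8.15 in Lint-O KD. Its ratio to EGFP KD, which had 2 reads in all, was 651 in L(3)mbt KD (95% counting interval 180 to 5381), 1100 in Lint-1 KD (304 to 9091) and 134 in Lint-O KD (36.7 to 1109). The 3 knockdowns did not overlap for CG14516, with Lint-1 KD highest and Lint-O KD lowest.

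CG11674 (X, 14224647 to 14225879) was at 0.107 and 0.102 CPM in the EGFP KD libraries, against 31 and 41.1 with L(3)mbt reduced, 53.1 and 48.1 with Lint-1 reduced and 8.15 and 9.22 with Lint-O reduced. It followed the same order, with no overlap between the knockdowns. CG34355 (3R, 23803859 to 23859167), the longest of the 61 loci at 55309 bases, was 0.107 and 0.307 CPM in EGFP KD, 33.2 and 31.6 in L(3)mbt KD, 24.1 and 29.8 in Lint-1 KD, and 4.32 and 8.85 in Lint-O KD. Here L(3)mbt KD was above Lint-1 KD, and Lint-O KD again lay lowest without overlap.

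CG11052 (3R, 8008249 to 8009297) had no read in either EGFP KD library, and was 18.1 and 17.1 CPM in L(3)mbt KD, 6.39 and 7.12 in Lint-1 KD, and 9.04 and 11.6 in Lint-O KD. Against a floor of 3 counts per control library this was at least 112-fold higher in L(3)mbt KD, at least 43.0-fold in Lint-1 KD and at least 65.8-fold in Lint-O KD. The other genes at 0 in both controls were Arpc3B and CG15629. CG15629 was 1.31 and 1.17 CPM in L(3)mbt KD, 1.72 and 1.98 in Lint-1 KD, and 1.19 and 1.6 in Lint-O KD, at least 7.89-fold, 11.8-fold and 8.89-fold higher in that order. Its mean CPM over the knockdowns was the lowest of the 61.

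Of the other genes among the 12 with the highest knockdown mean, most have no role that is given here. Vdup1, the fly relative of mammalian thioredoxin-interacting protein, was 0 and 0.205 CPM in EGFP KD, 11.1 and 12.6 in L(3)mbt KD, 9.25 and 9.32 in Lint-1 KD, and 5.76 and 6.18 in Lint-O KD. Its levels in L(3)mbt KD lay above those in Lint-1 KD and those in Lint-O KD below both. CG13771 was at 0.16 and 0.102 CPM in the EGFP KD libraries, against 7.71 and 9.73 with L(3)mbt reduced, 10.6 and 8.78 with Lint-1 reduced and 5.71 and 5.54 with Lint-O reduced. CG12194 was 0.427 and 0.205 CPM in EGFP KD, 12.5 and 11.6 in L(3)mbt KD, 8.15 and 7.02 in Lint-1 KD, and 3.18 and 4.26 in Lint-O KD, highest in L(3)mbt KD and lowest in Lint-O KD without overlap. CG33679 was at 0.214 and 0.102 CPM in the EGFP KD libraries, against 8.58 and 8.76 with L(3)mbt reduced, 8.63 and 5.2 with Lint-1 reduced and 5.07 and 6.23 with Lint-O reduced. CG9427 had 2 control reads, and was 7.71 and 8.61 CPM in L(3)mbt KD, 8.53 and 9.16 in Lint-1 KD, and 3.97 and 4.37 in Lint-O KD. For CG33679, CG13771 and CG9427, L(3)mbt KD and Lint-1 KD overlapped.

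Of the 61 genes, 3 are grouped here by a textbook role in the germline or the egg, and all 3 were highest in L(3)mbt KD, as were 35 of the 61. The count of 3 depends on the choice, since cona, ocn and BigH1, which act in the germline or testis and met the thresholds, had been set aside by name. It also depends on the grouping, which placed each gene in a single group. Genes of the other groups, among them the second copies described next, may act in the germline or testis too. tor encodes Torso, the receptor tyrosine kinase that patterns the ends of the embryo and is supplied by the mother, and was 0.214 and 0.205 CPM in EGFP KD, 10.6 and 6.18 in L(3)mbt KD, 3.1 and 4.45 in Lint-1 KD, and 3.63 and 4.85 in Lint-O KD. gammaTub37C encodes the maternal gamma tubulin, a nucleator of microtubules in the egg, and was at 0 and 0.102 CPM in the EGFP KD libraries, against 6.18 and 7.24 with L(3)mbt reduced, 3.24 and 4.23 with Lint-1 reduced and 1.89 and 1.86 with Lint-O reduced. CG13741 (Boot, Bootlegger) is a germline factor in the export of piRNA precursors, and was 0.321 and 0.205 CPM in EGFP KD, 2.79 and 3.85 in L(3)mbt KD, 2.34 and 1.82 in Lint-1 KD, and 1.09 and 1.39 in Lint-O KD. Both Lint-O KD libraries lay below all 4 others for gammaTub37C and CG13741, while for tor Lint-O KD overlapped Lint-1 KD.

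A group of 5 genes encodes second copies of subunits or factors that every cell uses. Arpc3B, a subunit of the actin-nucleating Arp2/3 complex (X, 17104571 to 17105852), had no read in either control library, and was 8.75 and 7.85 CPM in L(3)mbt KD, 5.53 and 6.0 in Lint-1 KD, and 1.74 and 2.13 in Lint-O KD. This was at least 52.9-fold higher than the floor in L(3)mbt KD, 36.7-fold in Lint-1 KD and 12.3-fold in Lint-O KD. eIF4E-6, of the cap-binding translation factor family, was at 0.427 and 0.41 CPM in the EGFP KD libraries, against 12.6 and 8.66 with L(3)mbt reduced, 10.7 and 13.8 with Lint-1 reduced and 9.39 and 12.6 with Lint-O reduced. Its 3 knockdowns overlapped. CG10396 (COX4L), a copy of subunit 4 of cytochrome c oxidase, was 0.321 and 0.102 CPM in EGFP KD, 4.97 and 4.31 in L(3)mbt KD, 3.24 and 4.02 in Lint-1 KD, and 4.57 and 3.94 in Lint-O KD, with Lint-O KD overlapping both other knockdowns. ms(3)72Dt (ATPsynbetaL), a copy of the ATP synthase beta subunit, was at 0.214 and 0.205 CPM in the EGFP KD libraries, against 3.66 and 4.96 with L(3)mbt reduced, 2.24 and 1.71 with Lint-1 reduced and 2.83 and 3.46 with Lint-O reduced. Vha16-5, a proteolipid subunit of the proton pump V-ATPase, was 0.107 and 0 CPM in EGFP KD, 1.64 and 2.28 in L(3)mbt KD, 2.72 and 2.3 in Lint-1 KD, and 1.04 and 1.44 in Lint-O KD. Reads of near-identical copies could be split by the counting, so the values of these copies are uncertain in that respect.

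Related genes were set beside them and beside other members, since they were no part of the choice. Of 11 related genes, picked after the 61 were known, 10 were tested, and 1 passed the test in any knockdown against EGFP KD, where 10.9% of all tested genes were called in L(3)mbt KD, 9.66% in Lint-1 KD and 5.46% in Lint-O KD. Arpc3A was 52.1 ± 4.65 CPM in EGFP KD, 46.1 ± 0.834 in L(3)mbt KD, 50.4 ± 2.16 in Lint-1 KD and 54.7 ± 2.68 in Lint-O KD (SD, n = 2). Its log2 changes were -0.24 (SE 0.129), -0.12 (SE 0.129) and 0.06 (SE 0.129), with edgeR adjusted p = 0.296, 0.615 and 0.969. CoIV (COX4) went from 569 CPM in EGFP KD to 499, 493 and 562 in L(3)mbt KD, Lint-1 KD and Lint-O KD (edgeR adjusted p = 0.279, 0.234 and 0.992). None of these differences passed the test, which does not show that the levels were equal. eIF-4E (eIF4E1) was 368 CPM in EGFP KD against 336, 302 and 414 in the same order (edgeR adjusted p = 0.478, 0.211 and 0.866). ATPsyn-beta was 1689 CPM against 1379, 1451 and 1480 (edgeR adjusted p = 0.0623, 0.131 and 0.514). Vha16-1 was 833 CPM against 761, 739 and 837, and gammaTub23C, the gamma tubulin of dividing somatic cells, was 81.5 CPM against 81.6, 101.4 and 84.9, with edgeR adjusted p between 0.270 and 0.999. The exception was yellow-f, the neighbour and relative of yellow-f2, at 0.107 CPM in EGFP KD and 1.56 in L(3)mbt KD (log2 change 3.74, SE 0.895, edgeR adjusted p = 0.0279). Leaving out EGFP KD replicate 2, L(3)mbt KD replicate 1 or L(3)mbt KD replicate 2 ended that call, with adjusted p = 0.133, 0.0611 and 0.0723. Mipp2, related to Mipp1, was 6.38 CPM in EGFP KD against 5.90, 5.63 and 6.61, and CS-2, a chitin synthase like kkv, 0.0534 CPM against 0.565, 0.149 and 0.492. Neither passed the test, and Task6 was too low to be tested.

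**Figure D2:**
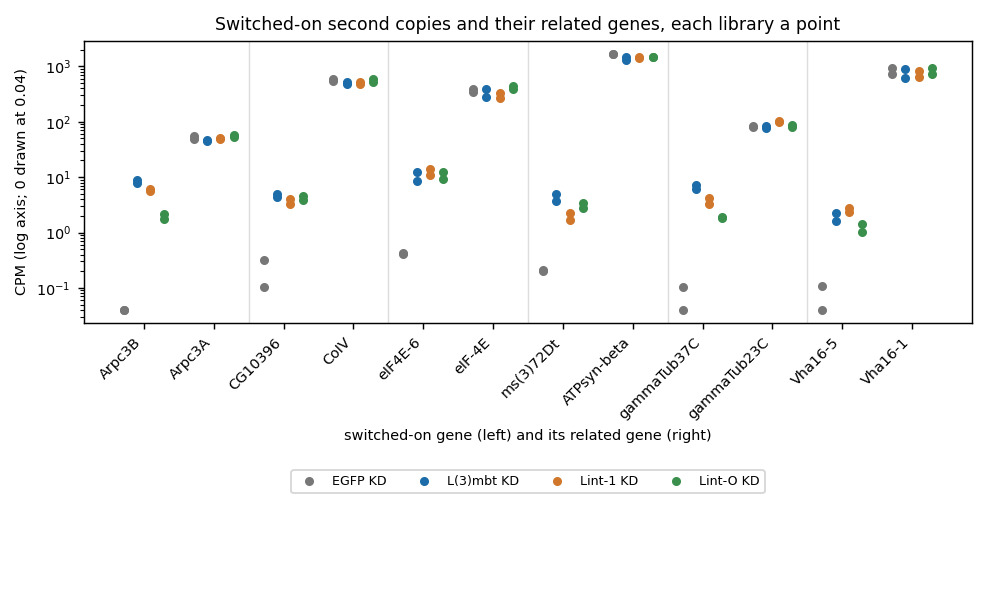
CPM (log axis, 0 drawn at 0.04) of 6 of the genes and their related genes side by side, each library a point coloured by group. The related genes kept 81.5 to 101.4 CPM for gammaTub23C and 302 to 414 for eIF-4E as group means, while the genes of the set lay under 0.5 CPM in both EGFP KD libraries.

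Members of the neuronal and photoreceptor group numbered 7, of which 6 were highest in L(3)mbt KD and 6 lowest in Lint-1 KD. Of all 61, 35 were highest in L(3)mbt KD and 22 lowest in Lint-1 KD. The groups were formed after the members were known, and a difference of a group from the whole set was not tested. nAChRbeta3, a subunit of the nicotinic acetylcholine receptor (2L, 545129 to 547096), was 0.16 and 0.359 CPM in EGFP KD, 24.8 and 24.9 in L(3)mbt KD, 8.49 and 10.1 in Lint-1 KD, and 7.35 and 7.51 in Lint-O KD. L(3)mbt KD stood clear of the other knockdowns. RIC-3 assists the assembly of such receptors, and was at 0 and 0.102 CPM in the EGFP KD libraries, against 6.67 and 2.08 with L(3)mbt reduced, 2.1 and 2.41 with Lint-1 reduced and 2.48 and 4.74 with Lint-O reduced. Its L(3)mbt KD libraries differed 3.21-fold, the widest gap between replicates of that group, and the knockdowns overlapped. Task7, a potassium channel of the leak type, was 0.214 and 0 CPM in EGFP KD, 10.6 and 8.71 in L(3)mbt KD, 1.38 and 3.32 in Lint-1 KD, and 6.16 and 5.54 in Lint-O KD. Both Lint-1 KD libraries lay below all other knockdown libraries for Task7. Cdk5alpha, the activator of the neuronal kinase Cdk5, was at 0.214 and 0.102 CPM in the EGFP KD libraries, against 4.05 and 4.26 with L(3)mbt reduced, 1.62 and 2.36 with Lint-1 reduced and 3.08 and 4.21 with Lint-O reduced. Gyc-89Da, an atypical guanylyl cyclase, was 0.321 and 0.307 CPM in EGFP KD, 3.94 and 3.39 in L(3)mbt KD, 2.24 and 1.93 in Lint-1 KD, and 2.14 and 2.93 in Lint-O KD. Drep-2, related to DNA fragmentation factors, reached 1.34 to 3.94 CPM in the knockdown libraries, and ninaG, an enzyme of visual chromophore formation, 1.44 to 2.69 CPM. Of related genes, Gyc-89Db was at 0 in both EGFP KD libraries and averaged 0.755, 1.03 and 0.248 CPM in L(3)mbt KD, Lint-1 KD and Lint-O KD (edgeR adjusted p = 0.0715, 0.0526 and 0.395).

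Among 8 metabolic enzymes, Tps1, which makes trehalose phosphate, the precursor of the main blood sugar of insects, was at 0.321 and 0 CPM in the EGFP KD libraries, against 4.7 and 5.72 with L(3)mbt reduced, 5.24 and 3.64 with Lint-1 reduced and 3.92 and 3.78 with Lint-O reduced. CG18173 (PIG-Wb), of the GPI anchor pathway, was 0.214 and 0.205 CPM in EGFP KD, 4.43 and 4.26 in L(3)mbt KD, 3.15 and 5.41 in Lint-1 KD, and 1.39 and 1.6 in Lint-O KD. CG10361 (Gcat), a glycine C-acetyltransferase of threonine breakdown, was at 0.16 and 0.102 CPM in the EGFP KD libraries, against 2.51 and 3.85 with L(3)mbt reduced, 2.67 and 2.68 with Lint-1 reduced and 4.47 and 4.58 with Lint-O reduced. The first had its lowest mean in Lint-O KD, as had CG18173, whose Lint-O KD libraries lay below the 4 others, while CG10361 was highest in Lint-O KD. Mipp1 and Spat stayed between 1.60 and 3.29 CPM in the knockdown libraries. Eo, an ecdysone oxidase, ranged from 1.04 to 3.86 CPM and Cyp305a1, a cytochrome P450, from 1.10 to 2.29 CPM. fa2h, a fatty acid hydroxylase, reached 1.64 and 1.98 CPM in L(3)mbt KD, 1.19 and 1.07 in Lint-1 KD and 2.93 and 2.61 in Lint-O KD, again with Lint-O KD above the rest.

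A further 5 genes act in cuticle, clotting or extracellular proteolysis. yellow-f2, a dopachrome conversion enzyme of the melanin pathway, was 0.321 and 0.102 CPM in EGFP KD, 9.95 and 11 in L(3)mbt KD, 7.67 and 8.84 in Lint-1 KD, and 8.4 and 10.9 in Lint-O KD. Tg, the transglutaminase that crosslinks hemolymph clots, was at 0.481 and 0.102 CPM in the EGFP KD libraries, against 6.45 and 7.3 with L(3)mbt reduced, 3.96 and 4.12 with Lint-1 reduced and 1.84 and 2.61 with Lint-O reduced, and kkv, a chitin synthase, was 0.214 and 0.307 CPM in EGFP KD, 3.5 and 4.61 in L(3)mbt KD, 2.81 and 4.12 in Lint-1 KD, and 1.54 and 1.12 in Lint-O KD. For Tg and kkv both Lint-O KD libraries lay below the other 4, and for yellow-f2 they overlapped Lint-1 KD and L(3)mbt KD. Tace, a membrane metalloprotease, ranged from 1.34 to 4.55 CPM in the knockdown libraries, and spirit, a serine protease upstream of Toll, from 2.19 to 3.34 CPM.

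Genes of cell polarity, adhesion and the membrane skeleton numbered 4. Sans, a scaffold whose human relative is an Usher syndrome gene, was at 0.321 and 0.102 CPM in the EGFP KD libraries, against 5.79 and 6.18 with L(3)mbt reduced, 6.72 and 9.0 with Lint-1 reduced and 1.99 and 1.97 with Lint-O reduced. Scgbeta, beta sarcoglycan of the dystrophin complex, was 0.107 and 0.102 CPM in EGFP KD, 3.06 and 6.33 in L(3)mbt KD, 5.1 and 6.48 in Lint-1 KD, and 3.33 and 1.92 in Lint-O KD. The protein of in (inturned) sets planar cell polarity, and the gene was at 0.214 and 0.205 CPM in the EGFP KD libraries, against 4.05 and 4.0 with L(3)mbt reduced, 3.05 and 2.79 with Lint-1 reduced and 2.33 and 3.41 with Lint-O reduced. CG5022 (Frmd5), with a FERM domain, was 0.214 and 0.41 CPM in EGFP KD, 4.26 and 4.0 in L(3)mbt KD, 4.05 and 2.89 in Lint-1 KD, and 2.53 and 5.17 in Lint-O KD. Sans was lowest in Lint-O KD without overlap, and the other 3 overlapped between Lint-O KD and at least 1 other knockdown.

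All 3 non-coding RNAs had their lowest mean in Lint-O KD, as had 36 of the 61 genes. CR43467, annotated as antisense, was 0 and 0.307 CPM in EGFP KD, 6.94 and 6.74 in L(3)mbt KD, 6.2 and 4.82 in Lint-1 KD, and 1.59 and 3.25 in Lint-O KD. It overlaps CG12917 and Or46a in the annotation. CR44961, antisense and overlapping gce, ranged from 3.01 to 3.7 CPM in L(3)mbt KD and Lint-1 KD libraries and from 1.28 to 1.89 CPM in Lint-O KD. CR44294 lay between 2.19 and 4.19 CPM in the former 2 knockdowns and at 1.69 and 1.33 CPM in Lint-O KD.

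The levels of the set were lower in Lint-O KD than in L(3)mbt KD for most genes. Setting Lint-O KD against L(3)mbt KD, the median ratio of the 61 genes was 0.674 (log2 -0.57, quartiles -1.25 and -0.09), against a median log2 ratio of 0.00187 over all 8244 genes tested. Of the 61, 49 had the lower mean in Lint-O KD and 12 the higher. These ratios and means, here and in the next comparisons, use CPM rescaled by TMM, unlike the levels of single libraries. Both Lint-O KD libraries lay below both L(3)mbt KD libraries for 37 of the 61 genes, where 28.3% of all tested genes did so, and above for 5, where 14.1% did. The other 19 overlapped. All 61 passed the filter on low counts, which their 1 CPM minimum in the knockdowns had set in advance.

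By edgeR's quasi-likelihood test adjusted over all 8244 genes, 6 of the 61 genes were lower in Lint-O KD than in L(3)mbt KD and 0 were higher. This was 9.84% of them, where 0.704% of all genes tested were called, 0.667% lower and 0.0364% higher. CG34355 differed by -2.26 on the log2 scale (SE 0.307, adjusted p = 0.0176), CG14516 by -2.23 (SE 0.25, adjusted p = 0.00842) and Arpc3B by -2.04 (SE 0.266, adjusted p = 0.0214). CG11674 differed by -2.01 (SE 0.201, adjusted p = 0.00424), nAChRbeta3 by -1.69 (SE 0.217, adjusted p = 0.0159) and CG12194 by -1.64 (SE 0.258, adjusted p = 0.0353). At an unadjusted p under 0.05 the count was 25, all lower in Lint-O KD. The share of all tested genes at that cut was not computed, so this count has no background beside it. All 6 calls were lost without Lint-O KD replicate 1 (adjusted p = 0.139 to 0.385) and without Lint-O KD replicate 2 (0.0564 to 0.194), and 4 of them without L(3)mbt KD replicate 2, but their sign stayed, at -1.48 to -2.79 over these fits.

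**Figure D3:**
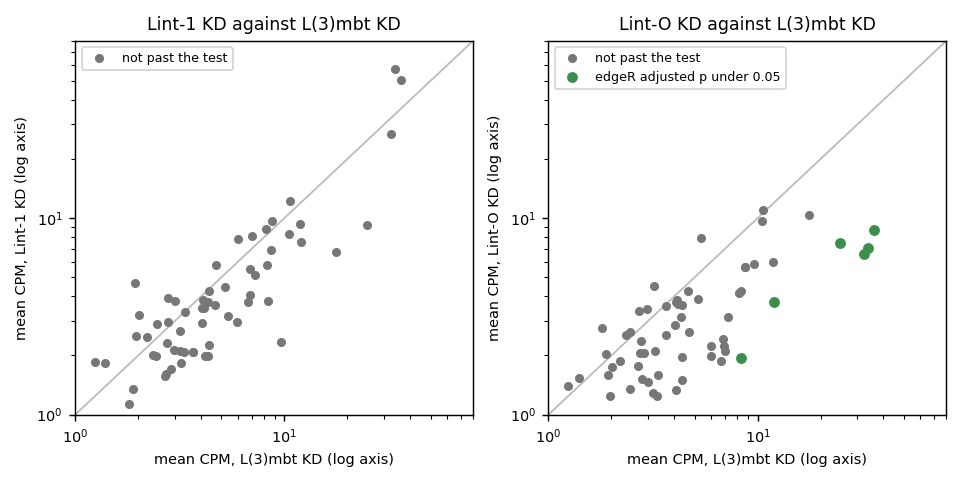
Mean CPM of each of the 61 genes in Lint-1 KD (left) and Lint-O KD (right) against L(3)mbt KD, both axes on a log scale, with the line of equality. In the right panel most genes lie below the line, 6 of them past the test. In the left panel most lie below it and 0 are past the test.

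Between Lint-1 KD and L(3)mbt KD the median ratio was 0.802 (log2 -0.32), with 43 genes lower and 18 higher in Lint-1 KD, and the same median over all tested genes was 0.000347 on the log2 scale. Both Lint-1 KD libraries were below both L(3)mbt KD libraries for 30 genes, where 15.3% of all tested genes were, and above for 9, where 17.1% were, and 22 overlapped. None of the 61 passed edgeR's test, where 0.0728% of all genes were called (0.0364% higher and 0.0364% lower), and the lowest adjusted p was 0.0746, for nAChRbeta3. At an unadjusted p under 0.05 there were 14, of which 11 were lower and 3 higher in Lint-1 KD, again without the share of all tested genes at that cut. DESeq2 called 3 (CG11052, Task7 and nAChRbeta3).

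The median ratio of Lint-1 KD to Lint-O KD was 1.20 (log2 0.26), with 37 genes higher and 24 lower in Lint-1 KD, beside a median of -0.00442 on the log2 scale over all tested genes. Both Lint-1 KD libraries lay above both Lint-O KD libraries for 34 genes, where 33% of all tested genes did, and below for 12, where 19.5% did, and 15 overlapped.

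In edgeR's test 6 of the 61 genes (9.84%) were higher in Lint-1 KD than in Lint-O KD and 0 were lower, where 1.18% of all genes were called, 0.91% higher and 0.267% lower. CG14516 differed by 2.98 on the log2 scale (SE 0.255, adjusted p = 0.00128) and CG11674 by 2.48 (SE 0.203, adjusted p = 0.00104). CG34355 differed by 1.99 (SE 0.306, adjusted p = 0.0216), Sans by 1.92 (SE 0.321, adjusted p = 0.0300), CG7384 by 1.88 (SE 0.330, adjusted p = 0.0348) and Arpc3B by 1.51 (SE 0.267, adjusted p = 0.0439). CG7384 was at 0.374 and 0.102 CPM in the EGFP KD libraries, against 6.4 and 7.55 with L(3)mbt reduced, 7.2 and 9.05 with Lint-1 reduced and 2.09 and 2.13 with Lint-O reduced. This comparison and the one of Lint-O KD with L(3)mbt KD share the Lint-O KD libraries, so that their results are not independent of each other. At an unadjusted p under 0.05 there were 26 genes, 19 higher and 7 lower in Lint-1 KD, and the share of all tested genes at that cut was not computed. All 6 calls were lost without Lint-O KD replicate 1 (adjusted p = 0.0513 to 0.359). Without Lint-O KD replicate 2, or either Lint-1 KD replicate, CG14516 and CG11674 kept their calls and the other 4 did not.

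**Figure D4:**
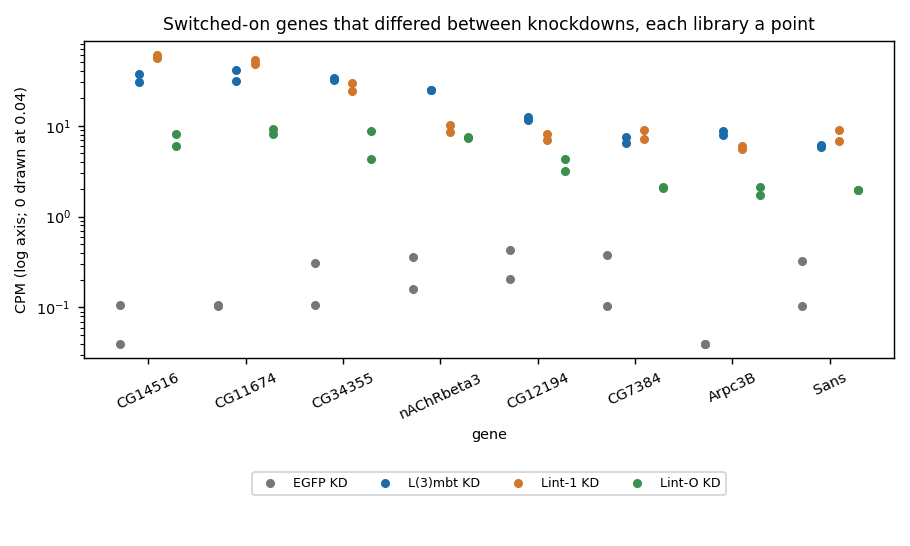
CPM (log axis, 0 drawn at 0.04) of the 8 genes that passed edgeR's test between knockdowns, each library a point coloured by group. In all 8 the Lint-O KD points lie below the L(3)mbt KD points, and for CG14516 the 2 Lint-1 KD libraries, at 55.5 and 59.8 CPM, stand above the rest.

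A minority ran against this order. CG6409 was 0.16 and 0.205 CPM in EGFP KD, 5.41 and 5.37 in L(3)mbt KD, 3.81 and 2.52 in Lint-1 KD, and 8.49 and 7.3 in Lint-O KD, with both Lint-O KD libraries above all others. Together with fa2h and CG10361 it is among the 8 genes whose highest mean was in Lint-O KD. CG10339, in contrast, had the order of CG14516 and CG11674, and was at 0.107 and 0 CPM in the EGFP KD libraries, against 1.64 and 2.23 with L(3)mbt reduced, 4.05 and 5.3 with Lint-1 reduced and 1.64 and 1.55 with Lint-O reduced, with Lint-1 KD above both other knockdowns and the lowest mean in Lint-O KD. These genes were singled out after their values were seen, and none of them passed edgeR's test between knockdowns. DESeq2's Wald test called CG6409 lower in Lint-1 KD than in Lint-O KD. No role is given here to 26 of the 61 genes, and the 11 of them not named above (CG11617, CG13377, CG15375, CG31140, CG31626, CG42299, CG4404, CG5250, CG6441, CG8673 and CG8837) ranged from 1.19 to 7.38 CPM over the knockdown libraries. CG17549 and CG32037, also without a role here, ranged from 1.43 to 3.94 CPM.

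Replicates of the 61 genes differed by a median of 1.16-fold in L(3)mbt KD, 1.19-fold in Lint-1 KD and 1.28-fold in Lint-O KD. More than 2-fold differences between replicates occurred for 4, 2 and 4 genes. Counts behind a knockdown value ran from 20 to 1165 reads, those behind a control value from 0 to 9. The counting intervals of the ratios leave out the variation between libraries.

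The genes were scattered over the genome. On 2L lay 18 of them (29.5%, where 20.2% of all genes in the table lie), on 3R 14 (23.0% against 23.4%), on X 10 (16.4% against 15.3%), on 2R 10 (16.4% against 20.8%) and on 3L 9 (14.8% against 19.3%), with none on 4 or Y. None lay within 10000 bases of another of the set, and the median distance to the nearest one was 534453 bases. Their median span was 2495 bases, and 42 spanned under 3000, beside a median of 1805 over all genes of the table. At 50 of the 61 (82.0%) a gene that did not overlap it lay within 500 bases, which held for 60.8% of all genes, and the median gap was 194 bases against 326. Another gene overlapped 23 of them (37.7%, against 46.4% of all genes), among them CG14516, CG11674, CG34355, nAChRbeta3, CG33679, CG7384 and Sans. The sources used here do not say whether the counting used strand, so the reads of overlapping genes may not be fully told apart.

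Genes next to the set were mostly expressed and mostly not called. The 122 flanking genes, 1 on each side, held 91 tested ones (74.6%, where 49.3% of all genes of the table were tested). Of these, 10 (10.99%) were higher in L(3)mbt KD, where 9.58% of all tested genes were, 7 (7.69%) in Lint-1 KD, where 8.41% were, and 5 (5.49%) in Lint-O KD, where 5.2% were. In that order 1, 0 and 1 were lower, where 1.31%, 1.25% and 0.255% of all tested genes were. Their median log2 change was 0.03, 0.06 and 0.02. These shares are near the background. Of 31 genes that overlap a member, 22 were tested and 3, 3 and 1 were higher.

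Of the 91 flanking genes tested, 4 were higher in all 3 knockdowns by edgeR's test, a share near the 4.42% of all tested genes that were (364 genes). Their values are given to describe the surroundings of the set. vas, the germline RNA helicase, lies 2536 bases from CG33679 and was 1.5 and 1.23 CPM in EGFP KD, 129 and 123 in L(3)mbt KD, 12.4 and 12.8 in Lint-1 KD, and 51.6 and 73.1 in Lint-O KD. It changed by 6.46 on the log2 scale in L(3)mbt KD (SE 0.218, adjusted p = 2.17e-06), 3.14 in Lint-1 KD (SE 0.211, adjusted p = 3.03e-05) and 5.49 in Lint-O KD (SE 0.213, adjusted p = 7.64e-06). CG33679 itself stood at 5.07 to 8.76 CPM in all 6 knockdown libraries, and TfIIS, which overlaps CG33679, was 165 ± 8.33 CPM in EGFP KD and 159 to 184 in the knockdown means (SD, n = 2; edgeR adjusted p = 0.578, 0.651 and 0.895).

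CG42255 (Cubn2), 1090 bases from CG10361, was at 0.748 and 1.79 CPM in the EGFP KD libraries, against 29 and 21.3 with L(3)mbt reduced, 14.3 and 13.2 with Lint-1 reduced and 11.3 and 20.4 with Lint-O reduced (edgeR adjusted p = 0.000153, 0.000673 and 0.000575). CG30441 (IFT20), a factor of transport in cilia, lies 1872 bases from CG10396 and was 1.87 and 1.64 CPM in EGFP KD, 4.7 and 4.61 in L(3)mbt KD, 4.1 and 4.77 in Lint-1 KD, and 6.51 and 6.18 in Lint-O KD. Its log2 changes were 1.34, 1.26 and 1.84 (edgeR adjusted p = 0.0100, 0.0155 and 0.00254). CG1941, 689 bases from tor, had no read in EGFP KD and was 1.2 and 0.963 CPM in L(3)mbt KD, 0.667 and 0.536 in Lint-1 KD, and 0.348 and 0.746 in Lint-O KD (edgeR adjusted p = 0.00735, 0.0225 and 0.0365). The calls of CG1941 in Lint-1 KD and in Lint-O KD were lost without either EGFP KD replicate or either replicate of the knockdown, with adjusted p = 0.0714 to 0.194. The call of CG30441 in Lint-1 KD was lost in the same way (0.0524 to 0.121), and that in L(3)mbt KD without EGFP KD replicate 2 (0.0824).

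Some other neighbours passed the test in part of the knockdowns. rempA lies 6646 bases from nAChRbeta3 and was 19.9 and 23.4 CPM in EGFP KD, 61.2 and 58.4 in L(3)mbt KD, 33.7 and 36.6 in Lint-1 KD, and 22.9 and 29.5 in Lint-O KD. It was called higher in L(3)mbt KD (edgeR adjusted p = 0.000422) and in Lint-1 KD (0.0345) and not in Lint-O KD (0.608). Ets21C, which overlaps nAChRbeta3, was called higher in L(3)mbt KD with a log2 change of 0.72. Mdr49, which overlaps Sans, was called higher in L(3)mbt KD and in Lint-1 KD, with log2 changes of 2.07 and 1.17. Removing any single library of the 4 compared ended the Lint-1 KD calls, with adjusted p = 0.0940 to 0.197 for rempA and 0.0728 to 0.261 for Mdr49. That of Ets21C was lost without EGFP KD replicate 1 or either L(3)mbt KD replicate (0.0545 to 0.192). The difference of these changes between knockdowns was not tested.

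The lists of germline, meiosis, testis and germline piRNA genes hold no member, in part because cona (meiosis) and ocn (testis), which met the thresholds, had been set aside by name. The lists were drawn up with earlier results of these data known. Of all tested genes, 9.58% were higher in L(3)mbt KD, 8.41% in Lint-1 KD and 5.2% in Lint-O KD. Of 27 listed genes of germline identity and oogenesis, 19 were tested. otu, BicC and cup had no read in any library, and plu, zpg, osk, dhd and CG9975 were too low to be tested. Genes near 0 in EGFP KD, such as swa and yl, were tested only because their knockdown counts passed the filter. Being tested and being higher are thus linked in the counts of these lists. Of the 19 tested, 12 were higher in L(3)mbt KD, 11 in Lint-1 KD and 10 in Lint-O KD, with 0 lower and median log2 changes of 2.34, 2.06 and 1.65. The Lint-O KD count fell to 5 without EGFP KD replicate 1 or Lint-O KD replicate 2 and to 6 without Lint-O KD replicate 1. The medians over all tested genes were -0.01 in each knockdown. Of 12 germline piRNA amplification genes, which include vas, 6, 5 and 6 were higher, with median log2 changes of 1.17, 1.01 and 0.72. In Lint-O KD this fell to 2 without EGFP KD replicate 1 or Lint-O KD replicate 2, and to 3 without EGFP KD replicate 2 or Lint-O KD replicate 1. aub, a PIWI protein of germ cells, was at 2.19 and 2.97 CPM in the EGFP KD libraries, against 47.8 and 44 with L(3)mbt reduced, 40.8 and 33.5 with Lint-1 reduced and 38.3 and 42.5 with Lint-O reduced. Of 21 tested meiosis genes other than cona, 5, 6 and 5 were higher, with median log2 changes of 0.46, 0.35 and 0.11. The meiosis genes ord and mtrm were too low to be tested. okr was lower in L(3)mbt KD (log2 change -0.53, edgeR adjusted p = 0.0424, and 0.0618 to 0.196 without any 1 of the 4 libraries compared). Of 19 counted testis genes, 8 had no read in any library. aly, fzo and janB reached 0.298 CPM at most and were not tested. Of 7 tested testis genes other than ocn, tomb and mia were higher in each knockdown, with medians of 0.87, 0.85 and 0.92.

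The thresholds cut through a continuum. Just inside the control limit lay CG17549, CG32037 and Tg, whose higher control library was at 0.481 CPM, and just outside it CG14932, CG6967 and CG8791 at 0.512 CPM. Just inside the knockdown limit lay Eo and Vha16-5, whose lowest knockdown library was at 1.04 CPM, and fa2h at 1.07 CPM. Just outside it lay CG13386, CG3345 and CG34112 at 0.994 CPM. Promoter sequence was not analysed here.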

How the data were processed

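Polyadenylated RNA of 8 OSC libraries was measured. The deposited table holds raw counts of reads per gene. HISAT2, HTSeq, edgeR and the build dm6 are named in the submitters' processing notes, whereas their roles, versions, strand setting and annotation were not given in the sources used here. The other 6 samples (ChIP and input) were not analysed here. The 5 special lines (no feature 14.96% to 18.51%, ambiguous 1.05% to 1.13% of reads) were left out of library sizes.

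CPM was computed as count divided by reads on genes. Median ratios between knockdowns, and the counts of genes lower or higher beside them, used TMM-scaled CPM. Other levels, overlaps of libraries and the highest or lowest knockdown of a gene used unscaled CPM. Differences were tested with edgeR 4.0.16 in R 4.3.3: filterByExpr, TMM, glmQLFit on the 8 libraries together by group, and Benjamini-Hochberg adjustment over 8244 genes, called under 0.05. The SE is the size of the log2 change divided by the square root of the test's F statistic. It is an approximation and not taken from the fit itself. Ratios to the control carry exact 95% counting intervals, which like the floor of 3 counts cover counting error only. Replicate libraries were distinct: chi-square over degrees of freedom was 21.4 to 50.8. Names and positions came from the RefSeq table of dm6, where 46 of the 61 matched a current symbol and 15 a synonym.

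The members, gene lists, markers and named genes were chosen with earlier results of these data known. Named were the 12 members with the highest mean CPM over the knockdowns, members called between knockdowns, those with a known role, those at the thresholds, and up to 3 called genes of a list. Roles and related genes were assigned from general knowledge after the members were known. The fit was tested on simulated counts. Alternatives were DESeq2 1.42.0 size factors and its Wald test, other count filters, a fit of the 4 libraries compared, a replicate block, other CPM thresholds and each library left out.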

Additional observations from a re-analysis of the deposited data

How the results depend on the processing

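The number of genes that met the rule depended on its thresholds: 31 with under 0.25 CPM in the control, 138 with under 1 CPM, 126 with at least 0.5 CPM in the knockdowns and 25 with at least 2 CPM, and 61 to 88 with a library left out. Median ratios between knockdowns kept their direction under each scaling and with each library left out (log2 -0.46 to -0.67 for Lint-O KD against L(3)mbt KD, -0.26 to -0.47 for Lint-1 KD against L(3)mbt KD, 0.27 to 0.37 for Lint-1 KD against Lint-O KD).

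Counts of calls moved more. For Lint-O KD against L(3)mbt KD, Lint-1 KD against L(3)mbt KD and Lint-1 KD against Lint-O KD, 58, 6 and 97 genes were called, of them 6, 0 and 6 members. DESeq2's Wald test called 227, 51 and 277 genes, of them 10, 3 and 7 members. Without the low-count filter it was 281, 56 and 390 genes, of them 15, 3 and 12 members. A fit of only the 4 libraries compared called 35 genes for the first, 411 for the third and 555 for L(3)mbt KD against EGFP KD, where all libraries gave 898. With 1 library left out, which leaves an arm with a lone sample assumed to vary like the other groups, the genes called ranged from 1 to 118, 3 to 8 and 5 to 25, and the members from 0 to 6, 0 to 0 and 0 to 2. Against EGFP KD these ranges were 532 to 1208 in L(3)mbt KD, 425 to 481 in Lint-1 KD (796 with all libraries) and 264 to 284 in Lint-O KD (450 with all). The cause was not tested. The log2 change of Ets21C in Lint-O KD, not called, turned from -0.08 to 0.11 without EGFP KD replicate 2 (adjusted p = 0.805 to 1 with a library left out).

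The replicate numbers did not pair the libraries in the same way over all groups. Deviations of same-numbered libraries correlated at 0.2 between EGFP KD and Lint-O KD and at 0.329 between L(3)mbt KD and Lint-1 KD. In the other pairs of groups they correlated negatively, at -0.345 to -0.164. The main fit held no replicate term. With the replicate number as a block, 10 and 33 genes were called for Lint-O KD against L(3)mbt KD and Lint-1 KD against Lint-O KD, of them 3 and 3 members. A crossed replicate block, chosen after seeing the data, swapped the replicate numbers within L(3)mbt KD and within Lint-1 KD. It called 1230, 233 and 1749 genes between knockdowns, of them 18, 4 and 20 members, and 2528, 2532 and 816 genes against EGFP KD.

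Depth limits the control side, where members had at most 16 reads in both libraries together. The analysis of promoter motifs was not run.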
